A study of Mus musculus with 6 samples.

Results

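Ankrd1, 4 other targets of the transcriptional co-activator YAP and 4 genes of the pathway that controls it were followed in pancreatic islets of 2 obese mouse strains. The 9 genes are the targets Ankrd1, Ctgf, Cyr61, Amotl2 and Axl, the co-activators Yap1 and Wwtr1, their DNA-binding partner Tead1 and the kinase Lats2. They were found by the gene names in the scanner files, which hold 13 probes for them among 41174 non-control probes. Ankrd1 was picked by its large measured excess in NZO islets, so its values are given as a description with no test. The other 8 genes were taken as YAP targets or pathway members. Probes entered the test where at least 3 of the 6 arrays were well above background by the scanner software's own call, which left 11 probes of 8 member genes. Tead1 was the gene without a kept probe under its own name.

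The strain NZO/HiBomDife (New Zealand Obese, here NZO) is labelled diabetes-prone and is represented by 3 arrays, replicates 10, 11 and 12. The strain C57BL/6.V-Lepob/ob (below B6-ob/ob), whose mice carry the ob mutation of leptin and are labelled diabetes-resistant, are represented by 3 arrays, replicates 4, 5 and 6. All mice were male, ate a high-fat diet free of carbohydrate up to 18 weeks of age, then received carbohydrate, and gave islets 48 h after that change. The strains therefore differ in their whole genetic background and in leptin, and the values show 1 time point, not a response to carbohydrate. Each array holds 1 Cy3-labelled sample. Whether that sample came from 1 mouse or from several is not in the labels, and the p-values therefore reflect variation among these samples that may be technical.

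YAP and its paralogue TAZ, the product of Wwtr1, do not bind DNA themselves and act through TEAD factors. In the Hippo pathway, kinases of the MST family activate those of the LATS family. The LATS kinases phosphorylate both proteins and thereby keep them out of the nucleus or mark them for degradation. This is a control on the protein that transcript levels do not show. In the adult mouse pancreas YAP is known from ductal, acinar and stromal cells and is low or absent in endocrine cells.

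TEAD factors are known to bind the element GGAATG, and the windows before 4 of the targets are shown because their genes are the ones read out here. Each is the 250 bases before the gene start in RefSeq, build GRCm38.p6, written 5′ to 3′ along the gene, with GGAATG or its reverse complement CATTCC in capitals. The Ankrd1 window is chr19:36119845-36120094, minus strand, the Cyr61 window chr3:145649986-145650235, minus strand, the Amotl2 window chr9:102717554-102717803, plus strand, and the Axl window chr7:25788734-25788983, minus strand.
Ankrd1: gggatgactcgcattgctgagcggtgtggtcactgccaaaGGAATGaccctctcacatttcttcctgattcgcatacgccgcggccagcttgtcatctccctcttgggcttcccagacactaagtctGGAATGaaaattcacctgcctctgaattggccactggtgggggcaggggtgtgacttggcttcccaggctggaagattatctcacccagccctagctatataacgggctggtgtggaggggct
Cyr61: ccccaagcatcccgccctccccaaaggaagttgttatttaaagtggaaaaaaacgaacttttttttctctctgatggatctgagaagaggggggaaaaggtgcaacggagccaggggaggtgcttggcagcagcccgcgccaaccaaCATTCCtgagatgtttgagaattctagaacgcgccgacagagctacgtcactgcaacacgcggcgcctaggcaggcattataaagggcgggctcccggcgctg
Amotl2: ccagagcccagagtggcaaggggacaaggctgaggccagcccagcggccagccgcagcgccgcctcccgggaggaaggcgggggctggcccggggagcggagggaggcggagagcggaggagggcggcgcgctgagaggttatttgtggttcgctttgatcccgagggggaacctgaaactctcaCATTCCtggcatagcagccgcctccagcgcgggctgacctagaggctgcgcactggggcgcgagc
Axl: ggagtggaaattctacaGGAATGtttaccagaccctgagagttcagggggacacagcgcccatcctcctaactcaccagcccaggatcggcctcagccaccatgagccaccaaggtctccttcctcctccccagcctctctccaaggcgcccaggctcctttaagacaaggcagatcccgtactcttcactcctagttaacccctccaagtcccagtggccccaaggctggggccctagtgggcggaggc
The Ankrd1 window holds 2 matches, which begin 210 and 123 bases before the gene start, both on the gene's strand. Cyr61 and Amotl2 have 1 match each on the opposite strand, 103 and 65 bases before the start, and Axl has 1 at 233 bases. The windows of Yap1 and Wwtr1 also hold a match, and those of Lats2 hold none. Of the 32851 windows of this length from RefSeq, 12.6% hold at least 1 match and 1.02% hold 2 or more. Ctgf and Tead1 were not in the table. These are reference sequences that say nothing of NZO alleles, and a match of letters is not a binding site.

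On each array 23621 to 24711 probes were well above background, no spot was saturated, and precision is limited by having 3 arrays a strain. Intensities are the scanner's processed, background-subtracted signals, and levels are their log2 minus each array's 75th percentile, so a level of 0 is that percentile. Pearson's r over probes, which are not independent replicates, reached 0.9841 to 0.9885 for pairs of NZO arrays and 0.9682 to 0.987 for pairs of B6-ob/ob arrays. For pairs of unlike strain it was 0.928 to 0.9488. Ifi202b and H2-Ea, whose expression C57BL/6 mice are known to lack, exceeded background clearly on 3 of 3 NZO arrays and 0 of 3 B6-ob/ob arrays. Ifi202b was at least 46.2-fold and H2-Ea at least 10.3-fold brighter in NZO, a bound that puts each dim array at the lowest signal called well above background on it. Slide 2 held NZO 10 and B6-ob/ob 4, slide 3 held NZO 11 with B6-ob/ob 5 and 6, and slide 1 held NZO 12 alone, so differences could be read within slides 2 and 3.

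Ankrd1, which encodes an ankyrin repeat protein of the nucleus and the muscle sarcomere and is a widely used readout of YAP activity, was far brighter in NZO islets. Its processed intensity was 953.4, 2101 and 537.1 on NZO 10, 11 and 12, against 41.91, 19.29 and 14.72 on B6-ob/ob 4, 5 and 6. NZO 11 was the brightest and NZO 12 the dimmest of its strain, B6-ob/ob 4 stood above the other B6-ob/ob arrays, and the strains did not overlap. The level averaged 1.38 ± 1.13 in NZO and -4.20 ± 0.94 in B6-ob/ob (SD, n = 3 each), a difference of 5.58 on the log2 scale or 47.8-fold. Signed differences subtract B6-ob/ob from NZO as the scanner files are labelled, and the deposited value table, read by its column labels, gives the opposite sign. By difference Ankrd1 ranked 17 among 16418 genes, each represented by its brightest kept probe. Every array was called well above background, but the B6-ob/ob signals lie close to the lowest signals so called, which were between 9.055 and 10.578. With normexp background correction, run with an offset of 50 added to each signal, the difference of Ankrd1 was 3.75 in place of 5.58. An offset of this size makes differences between dim signals smaller. Within slide 2 the difference was 4.28 and within slide 3 it was 7.35, values chosen after seeing the data and given without a test. The probe lies at chr19:36186809-36186868, minus strand, of mm9, the build of all probe positions here. Exon or UTR assignments of the probes were not used here.

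**Figure D1:**
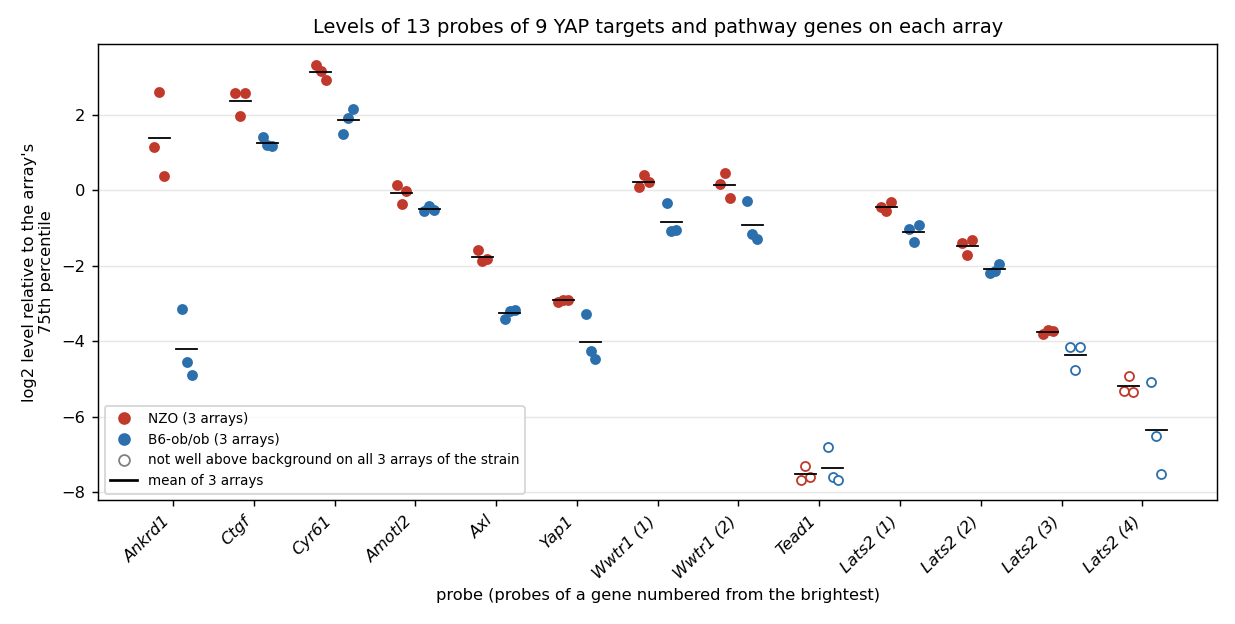
Levels of all 13 probes of the member genes, kept or not, as log2 intensity minus the array's 75th percentile. Each array is a point, with NZO left of B6-ob/ob. Among the kept probes Ankrd1 shows the widest gap between strains and the widest spread within them, with SDs of 1.13 in NZO and 0.94 in B6-ob/ob.

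Ctgf (now Ccn2) and Cyr61 (now Ccn1) encode secreted matricellular proteins of the CCN family and are the most used YAP targets besides Ankrd1, and both were higher in NZO. The intensity of Ctgf was 2579, 1351 and 2451 on NZO 10, 11 and 12, against 989.1, 1047 and 991.4 on B6-ob/ob 4, 5 and 6. The B6-ob/ob arrays lay close together, and NZO 11 came nearest to them. The level averaged 2.38 ± 0.35 in NZO and 1.27 ± 0.14 in B6-ob/ob (SD, n = 3 each), which differ by 1.11 (SE 0.20), or 2.16-fold (limma adjusted p = 0.0106). Without B6-ob/ob 5 the adjusted p of Ctgf was 0.0514. Cyr61 had an intensity of 4347, 3055 and 3107 on NZO 10, 11 and 12, against 1039, 1731 and 1961 on B6-ob/ob 4, 5 and 6. Its strains did not overlap, and B6-ob/ob 4, the brightest B6-ob/ob array for Ankrd1, was the dimmest for Cyr61. The Cyr61 level averaged 3.14 ± 0.20 in NZO and 1.86 ± 0.34 in B6-ob/ob (SD, n = 3 each), which differ by 1.27 (SE 0.21), or 2.42-fold (limma adjusted p = 0.00757). The probe of Ctgf lies at chr10:24318281-24318340 on the plus strand and that of Cyr61 at chr3:145310187-145310246 on the minus strand.

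Axl, a receptor tyrosine kinase for the ligand Gas6, had the lowest adjusted p of the members that were tested. Its intensity was 143.3, 93.46 and 115.5 on NZO 10, 11 and 12, against 34.54, 48.96 and 49.31 on B6-ob/ob 4, 5 and 6. Every NZO array was well clear of every B6-ob/ob array. The level averaged -1.76 ± 0.15 in NZO and -3.26 ± 0.14 in B6-ob/ob (SD, n = 3 each), which differ by 1.50 (SE 0.14), or 2.82-fold (limma adjusted p = 0.00101). With normexp background correction and its offset of 50 the difference was 0.86. Amotl2, an angiomotin family protein that binds YAP and is itself a target, did not pass the test. Its intensity was 473.2, 266.5 and 403.0 on NZO 10, 11 and 12, against 249.3, 339.6 and 307.5 on B6-ob/ob 4, 5 and 6. NZO 11 fell among the B6-ob/ob arrays in intensity, and after scaling, which divides by each array's own percentile, it stood just above them at a level of -0.36, where the highest B6-ob/ob array was at -0.42. The difference of Amotl2 was 0.41 with a 95% interval of 0.04 to 0.79 before adjustment (limma adjusted p = 0.113). Within slide 2 it was 0.69 and within slide 3 it was 0.11. The probe of Axl lies at chr7:26542953-26543012 on the minus strand and that of Amotl2 at chr9:102635025-102635084 on the plus strand.

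The co-activator transcripts were compared next. Yap1 had an intensity of 56.18, 45.59 and 54.88 on NZO 10, 11 and 12, against 37.80, 23.46 and 19.85 on B6-ob/ob 4, 5 and 6. The NZO arrays were nearly equal after scaling, and B6-ob/ob 4 stood apart from the other B6-ob/ob arrays. The level averaged -2.92 ± 0.02 in NZO and -4.01 ± 0.63 in B6-ob/ob (SD, n = 3 each), a difference of 1.09 with a 95% interval of 0.35 to 1.84 before adjustment, which missed the threshold of 0.05 (limma adjusted p = 0.0507). Without B6-ob/ob 4 the difference was 1.45 and the adjusted p was 0.00158, and under 4 settings that keep all arrays the adjusted p was 0.0427 to 0.0481. With normexp background correction and its offset of 50, which is near or above all these signals, the difference of Yap1 was 0.46. Within slide 2, which holds that array, the difference of Yap1 was 0.34, and within slide 3 it was 1.46. The Yap1 probe lies at chr9:7932540-7932599, minus strand.

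Wwtr1, which encodes TAZ, was higher in NZO on the brighter of its 2 probes. That probe, at chr3:57262551-57262610 on the minus strand, had an intensity of 458.8, 450.3 and 474.3 on NZO 10, 11 and 12, against 291.1, 213.9 and 210.7 on B6-ob/ob 4, 5 and 6. The NZO arrays lay close together and B6-ob/ob 4 was again the nearest to them, without overlap. The level averaged 0.23 ± 0.16 in NZO and -0.83 ± 0.42 in B6-ob/ob (SD, n = 3 each), which differ by 1.06 (SE 0.23), or 2.08-fold (limma adjusted p = 0.0215). The other probe, whose position spans chr3:57263010-57266477, gave a difference of 1.05 that did not pass the test (limma adjusted p = 0.057). The call on the brighter probe ended with slide as a fixed block, at an adjusted p of 0.0837, and without NZO 10, 11 or 12 or B6-ob/ob 5 or 6, at 0.051 to 0.0845. Within slide 2 the difference of Wwtr1 was 0.42 and within slide 3 it was 1.47.

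Tead1, a DNA-binding partner of both co-activators, was not measured by the probe that carries its name. Its intensity was 2.128, 2.167 and 2.095 on NZO 10, 11 and 12, against 3.313, 2.328 and 2.156 on B6-ob/ob 4, 5 and 6, not well above background on any array. The files also hold 2 probes named 2610024B07Rik, a name that RefSeq lists as a synonym of Tead1. The brighter of them had an intensity of 1709, 1460 and 1723 on NZO 10, 11 and 12, against 1350, 1483 and 1778 on B6-ob/ob 4, 5 and 6. Here the strains overlapped, with a difference of 0.18 and a 95% interval of -0.12 to 0.48 before adjustment (limma adjusted p = 0.353). The dimmer one gave a difference of 0.06 with an interval of -0.48 to 0.60 (limma adjusted p = 0.881). These probes do not count among the 13, since the name on them is not Tead1.

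Lats2, the kinase that phosphorylates YAP and TAZ and is itself known as a YAP target, was higher in NZO on the brightest of its 4 probes. That probe, at chr14:58308807-58308866 on the minus strand, had an intensity of 319.1, 232.5 and 331.6 on NZO 10, 11 and 12, against 182.0, 174.6 and 233.6 on B6-ob/ob 4, 5 and 6. NZO 11 and B6-ob/ob 6 were nearly equal in intensity, and the strains separated once each array was scaled. The level averaged -0.43 ± 0.13 in NZO and -1.10 ± 0.24 in B6-ob/ob (SD, n = 3 each), which differ by 0.67 (SE 0.16), or 1.59-fold (limma adjusted p = 0.0305). A probe that overlaps it, at chr14:58308835-58308894, gave 0.62 (limma adjusted p = 0.0323), and one at chr14:58309973-58310032 gave 0.61, which did not pass (limma adjusted p = 0.0732). The probe at chr14:58341239-58341298, designed on another transcript accession, was well above background on B6-ob/ob 4 alone and was not kept. The call of Lats2 ended with slide as a fixed block, at an adjusted p of 0.13, with no filter on dim probes, at 0.0606, and without NZO 10, 11 or 12 or B6-ob/ob 5, at 0.0684 to 0.0957.

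Of the 7 members other than Ankrd1 that were tested 5 were higher in NZO, namely Ctgf, Cyr61, Axl, Wwtr1 and Lats2, while Amotl2 and Yap1 did not pass. Among all 16418 genes tested 13.2% were higher and 8.92% were lower. In all 7 the 3 NZO levels lay above the 3 B6-ob/ob levels, as they did at 20.7% of all genes. The median difference of the 7 was 1.09, with a range of 0.41 to 1.50, and that of all genes was -0.03. Cyr61 and Axl kept their calls under all 16 other settings of the scanner data. With slide as a fixed block 3 of the 7 were higher, and with NZO 10, NZO 11 or NZO 12 left out the number was 3 each time. Without B6-ob/ob 5 it was 2. The genes were chosen with earlier results of these data known, so the counts describe them and do not set them apart from other genes.

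**Figure D2:**
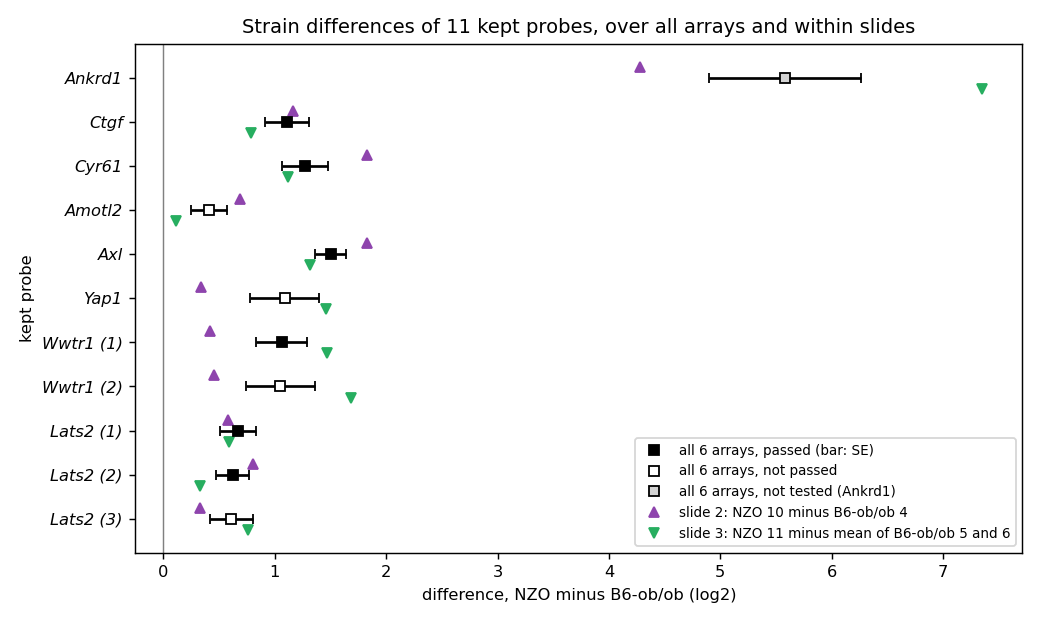
Differences NZO minus B6-ob/ob of the 11 kept probes of the member genes, on the log2 scale. The difference of all arrays stands with the differences within slide 2 and slide 3. Ankrd1 stands at 5.58 and the others between 0.41 and 1.50.

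The members did not follow one order of arrays. Within NZO, array 11 was the highest for Ankrd1 and for both probes of Wwtr1, and the lowest for Ctgf, Amotl2, Axl and the brightest Lats2 probe. Within B6-ob/ob, array 4 was the highest for Ankrd1, Ctgf, Yap1 and Wwtr1, and the lowest for Cyr61, Amotl2 and Axl. With 3 arrays a strain these orders are a description, and no correlation is given because the arrays fall into 2 clusters by strain.

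The genes whose profile over the 6 arrays was nearest to that of Ankrd1 were sought among 11635 named genes well above background on all 6 arrays. Likeness was the Euclidean distance between log2 levels, each gene centred on its mean. The nearest were Enpp1, an ectoenzyme that makes pyrophosphate, at 1.14, the keratin gene Krt23 at 1.14, and Spink3 (now Spink1), a trypsin inhibitor of the exocrine pancreas, at 1.17. Krt17, another keratin, followed at 1.40 and Ltb, which encodes lymphotoxin beta, at 1.48. The level of Krt17, for example, was 1.35, 2.81 and 0.65 on NZO 10, 11 and 12, against -2.67, -2.94 and -3.58 on B6-ob/ob 4, 5 and 6. In all 5, as in Ankrd1, NZO 11 was the highest array, NZO 12 the lowest of its strain and B6-ob/ob 4 the highest of its own. This shared order follows in large part from choosing the 5 by their likeness to Ankrd1 on these same arrays. Nearest to Ctgf were the connexin gene Gjc1 at 0.21, Grrp1 at 0.23 and the RNA-binding protein gene Rbpms2 at 0.25. No other member was among the 3 nearest to Ctgf. The distance includes the size of the strain difference, which was 5.58 for Ankrd1 and 0.41 to 1.50 for the other members. None of them could therefore be among the 5 nearest to Ankrd1, and their absence there is not a result.

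A wider list of 16 further YAP and TAZ targets was described by its counts. All 16 had a kept probe, and 7 were higher and 1 was lower in NZO. Some of these probes passed the filter through NZO alone, so the 13 measured on all 6 arrays are counted apart. Of these, 5 were higher and 1 was lower, with a median of 0.48, beside 11.5% higher and 8.41% lower among 14800 genes measured on all 6 arrays. Ccdc80, a matrix protein gene, had an intensity of 1002, 731.1 and 895.6 on NZO 10, 11 and 12, against 219.4, 156.3 and 133.2 on B6-ob/ob 4, 5 and 6. These values do not approach each other, and the difference was 2.48 (limma adjusted p = 0.00166). Tgfb2, a TGF-beta ligand, was higher by 2.23 (limma adjusted p = 0.00169), the membrane repair gene Myof by 1.29 (0.00934) and the phosphatase gene Ptpn14, whose product binds YAP, by 1.07 (0.00224). Nt5e, the ecto-nucleotidase CD73, and the transcription factor gene Foxf2 were not well above background on any B6-ob/ob array and were at least 3.56-fold and at least 1.76-fold brighter in NZO, given without a p because they passed the filter through NZO alone. Arhgef17 was lower in NZO. Its intensity was 8861, 7047 and 7724 on NZO 10, 11 and 12, against 13290, 17591 and 15280 on B6-ob/ob 4, 5 and 6, a difference of -0.87 (limma adjusted p = 0.0033).

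The wider pathway, with TEAD factors and their cofactors included, was read from 31 further genes. Of these, 30 had a kept probe and 26 were measured on all 6 arrays. Of the 30, 10 were higher and 2 were lower, beside 13.2% and 8.92% of all genes. Of the 26, 7 were higher and 2 were lower, with a median of 0.17, beside 11.5% and 8.41% of genes measured on all 6 arrays, so the lower count is near the overall share. Of this list Map4k4, Wwc2, Csnk1e and Wtip were higher in NZO (limma adjusted p = 0.044, 0.00549, 0.00285 and 0.04). Several genes of the kinase cascade upstream of YAP, named after their values were seen, did not pass the test. The MST kinase gene Stk3 differed by 0.19 and Stk4 by -0.44 (limma adjusted p = 0.322 and 0.0755), the adaptor Sav1 by 0.01, Lats1 by 0.19 and the merlin gene Nf2 by 0.03. The angiomotin gene Amot had an intensity of 179.7, 190.9 and 209.9 on NZO 10, 11 and 12, against 69.31, 62.66 and 63.68 on B6-ob/ob 4, 5 and 6. It was higher by 1.66 (limma adjusted p = 0.00186), and the FERM domain gene Frmd6 by 1.42 (0.000864). Ajuba, named Jub in the files, encodes a LIM protein that binds LATS kinases and was higher by 1.38 (limma adjusted p = 0.000674). Tead2 and the protocadherin gene Fat4 were higher by 1.99 and 1.14 (limma adjusted p = 0.0037 and 0.0166), with 2 of 3 B6-ob/ob arrays well above background for each. Vgll3, a TEAD cofactor gene, was not above background on any B6-ob/ob array and was at least 2.48-fold brighter in NZO, likewise without a p. Amotl1, the third angiomotin gene, moved the other way to Amot. Its intensity was 41.64, 28.37 and 25.54 on NZO 10, 11 and 12, against 66.69, 91.0 and 90.21 on B6-ob/ob 4, 5 and 6, a difference of -1.30 (limma adjusted p = 0.00455). Btrc, which encodes a ubiquitin ligase subunit that acts on phosphorylated YAP, was lower by the difference -0.59 (limma adjusted p = 0.0482). The number of lower pathway genes was 1 in place of 2 with normexp, with the percentile over detected probes, with no filter, with slide as a fixed block and without NZO 10, 11 or 12 or B6-ob/ob 5 or 6. The number of higher ones was 7 in place of 10 with normexp, with slide as a fixed block and without NZO 11, NZO 12 or B6-ob/ob 5. With no filter, and without NZO 10 or B6-ob/ob 4, it was 8.

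**Figure D3:**
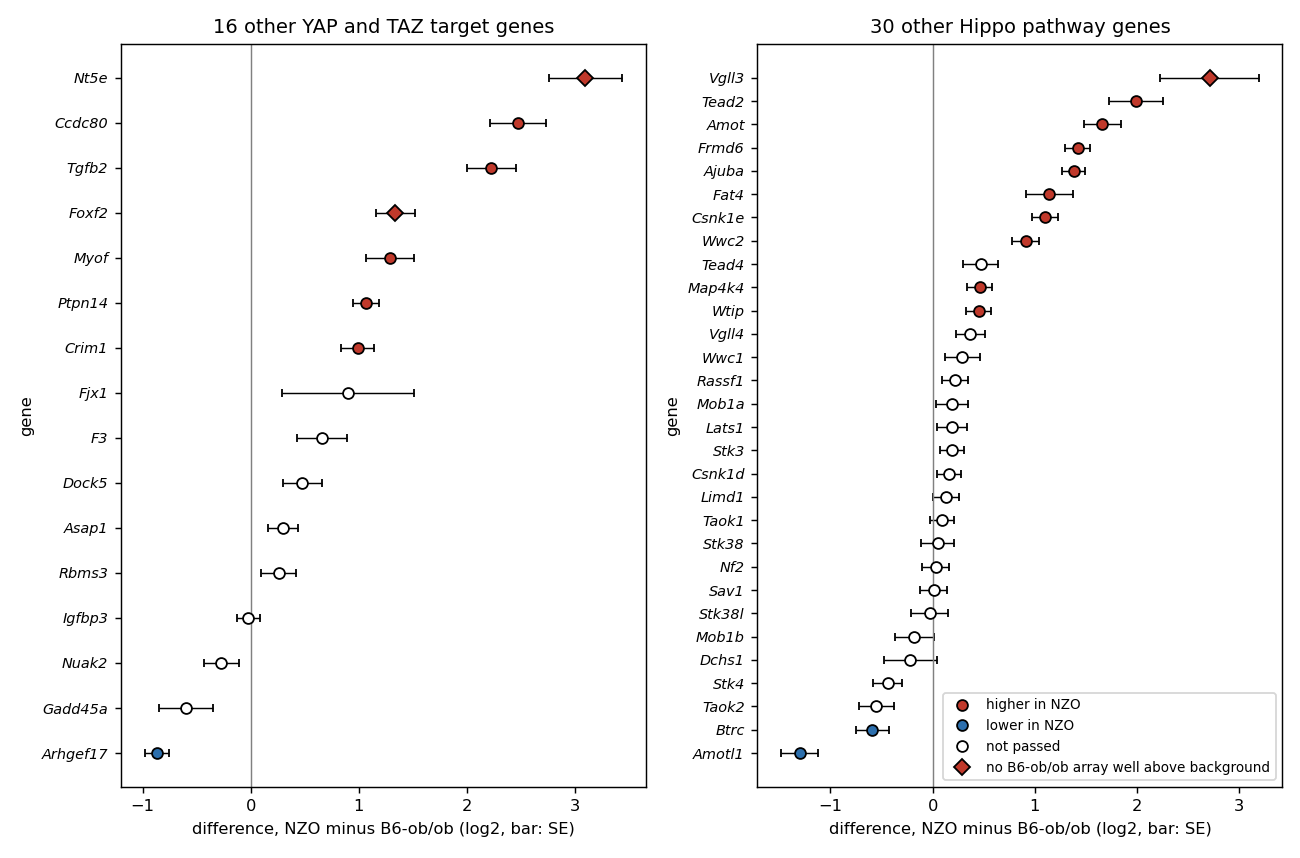
Differences NZO minus B6-ob/ob of the genes with a kept probe in both wider lists, on the log2 scale, 1 point a gene at its brightest kept probe. The further targets run from -0.87 to 3.10 and the pathway genes from -1.30 to 2.71.

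Whole islets hold several cell types, and in such samples fewer cells of a type and less RNA per cell cannot be told apart. The counts of markers that follow stand beside 13.2% of all genes higher and 8.92% lower in NZO. Among the endocrine markers, Ins2 differed by 0.06, Ins1 by 0.07 and Chga, a granule protein gene, by 0.02, and did not pass. Of 11 endocrine markers 2 were lower in NZO, Nkx6-1 at -0.81 and Isl1 at -1.05. Of 12 acinar markers 10 were higher in NZO, or 9 of the 11 measured on all 6 arrays, with Cela3b at 1.83, Cpa1 at 2.13 and Amy2a5 at 2.30. Their summed intensity was 579417 to 898574 on NZO arrays, against 99514 to 267620 on B6-ob/ob arrays, and the ranges do not overlap. Of 11 ductal markers 6 were higher, or 3 of the 8 measured on all 6 arrays. These 3 were Krt19 at 4.37, Sox9 at 3.62 and Onecut1 at 1.56. The keratin genes Krt8 at 0.02, Krt18 at 0.25 and Krt7 at 0.32 did not pass. The summed ductal intensity, which those keratins make up for the most part, was 216277 to 252453 in NZO and 163856 to 267432 in B6-ob/ob. Of 13 stromal markers (stellate cell, pericyte and fibroblast genes) 11 were higher, or 10 of the 12 measured on all 6 arrays, with a summed intensity of 29720 to 39845 in NZO and 10298 to 15316 in B6-ob/ob. Among the higher ones were Col1a1 at 3.89, Lum at 3.61 and the pericyte gene Rgs5 at 1.14. Sparc at 0.89 and Acta2 at -0.06 did not pass. Of 7 macrophage markers 4 were higher, with a summed intensity of 7942 to 16649 in NZO and 3375 to 5076 in B6-ob/ob. The macrophage genes Lyz2 at 1.74, C1qa at 1.63 and Cd14 at 2.65 were among the higher ones. Adgre1 at 0.23, Csf1r at 0.45 and C1qb at 0.19 did not pass. Of 10 endothelial markers 3 were higher, with a summed intensity of 19519 to 29316 in NZO and 19669 to 24480 in B6-ob/ob. Robo4 was higher by 0.69, and Plvap at -0.20 and Emcn at 0.22 did not pass. The ductal gene Cftr, the epithelial mucin Muc1 and the fibroblast receptor gene Pdgfra were well above background on no B6-ob/ob array.

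Over genes measured on all 6 arrays, a restriction chosen after seeing the data, the mean level of the acinar markers was 5.98, 6.22 and 6.62 on NZO 10, 11 and 12, against 5.06, 4.38 and 3.56 on B6-ob/ob 4, 5 and 6. The mean of the ductal markers was 3.34, 3.70 and 3.29 on NZO 10, 11 and 12, against 2.72, 2.07 and 1.46 on B6-ob/ob 4, 5 and 6. That of the stellate cell, pericyte and fibroblast markers was 2.52, 2.44 and 2.54 on NZO 10, 11 and 12, against 1.23, 0.44 and 0.02 on B6-ob/ob 4, 5 and 6. All 3 means were highest in B6-ob/ob 4 and lowest in B6-ob/ob 6 within that strain, an order that Ankrd1, Ctgf and Yap1 share, while Cyr61 and Axl have its reverse. Within NZO the ductal and macrophage means shared with Ankrd1 their highest array, 11, and their lowest, 12. The acinar mean was highest on NZO 12. The macrophage mean was 1.04, 1.06 and 0.22 on NZO 10, 11 and 12, against -0.51, -0.38 and -0.21 on B6-ob/ob 4, 5 and 6. Within B6-ob/ob it was lowest on array 4, where Ankrd1 was highest. Some of these places rest on small gaps, as between NZO 10 and 12 for the ductal mean. The part of these cell types in the differences of Ankrd1 and the other members was not tested.

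**Figure D4:**
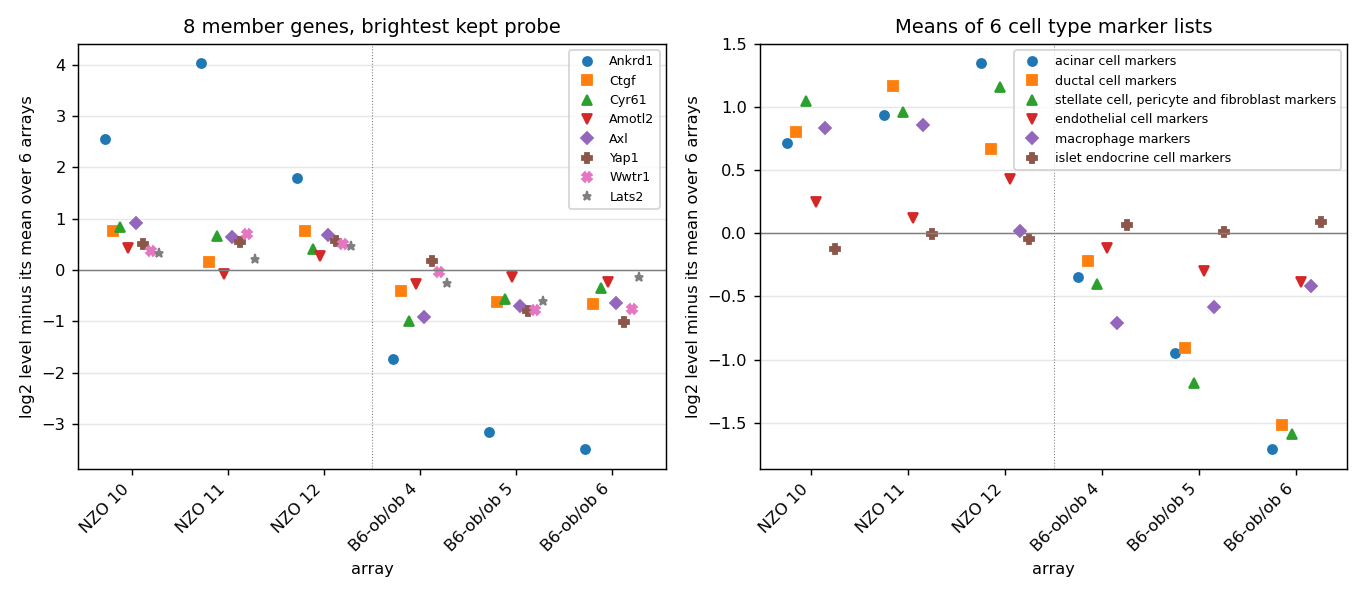
Levels on each array, in log2 units with each series centred on its mean over the 6 arrays, for the brightest kept probe of 8 member genes (left) and the means of 6 cell type marker lists (right), with NZO left of B6-ob/ob. Ankrd1 was highest on NZO 11, and the acinar, ductal and stromal marker means were higher on B6-ob/ob 4 than on B6-ob/ob 5 and 6.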

How the data were processed

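Total RNA of islets was amplified to Cy3-labelled cRNA, per the labels' protocols, and hybridised to 1-colour Agilent arrays of design 014868, per the file headers. The deposited scanner files hold spot intensity on a linear scale, background-subtracted and detrended, per the file headers, by version 10.5.1.1 of Agilent Feature Extraction (9.1 per the submitters' processing notes) and not normalised between arrays. The authors' deposited value table, of linear intensity at 33150 probes, served as an alternative. Its column medians were 21.3, 21.4 and 21.4 for labels NZO 10, 11 and 12 and 22.1, 21.4 and 22.4 for B6-ob/ob 4, 5 and 6. Each of its columns followed an array of the other strain (r 0.944 to 0.971 over centred probes) and ran against its own (-0.402 to -0.633). By its labels it puts Ifi202b at 1.12 to 1.16 in NZO and 7.92 to 9.30 in B6-ob/ob on the log2 scale, opposite to what is known of C57BL/6 mice, and no source used here says how its columns came to be so labelled.

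Groups came from the sample titles. Flagged spots, 61 to 76 an array, were left out. Processed intensities were put on the log2 scale, averaged for each probe, and scaled by subtracting the array's own 75th percentile of 41174 probes. The 24628 probes well above background on at least 3 arrays were fitted with limma 3.58.1 in R 4.3.3 (lmFit, eBayes, two-sided, Benjamini-Hochberg over all of them, threshold 0.05), after a check on simulated data. Genes stand at their brightest kept probe. "At least" folds give each dim array the higher of its own signal and the lowest that it called well above background.

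The members, lists and rules were chosen with earlier results of these data known. Named are all members, up to 6 called genes per direction of each wider list, the nearest profiles, 3 markers of each cell type list by level, and Ifi202b and H2-Ea. Nkx6-1, Isl1, Krt19, Sox9, Onecut1, Col1a1, Lum, Cftr, Muc1, Pdgfra, Stk3, Stk4, Sav1, Lats1, Nf2, Map4k4, Wwc2, Csnk1e and Wtip were named after their values were seen. Names are those of the files, updated through RefSeq. The alternatives covered background, normalisation, filter, gene summary, slide, prior variance, the value table and each array left out. The background alternative was normexp with an offset of 50.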

Additional observations from a re-analysis of the deposited data

How the results depend on the processing

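Under the 16 other settings of the scanner data, each array left out included, all 8 measured members kept their direction: Ankrd1 ranged from 3.75 to 6.11, Ctgf from 0.94 to 1.31, Cyr61 from 1.09 to 1.42, Amotl2 from 0.31 to 0.55, Axl from 0.86 to 1.55, Yap1 from 0.46 to 1.45, Wwtr1 from 0.88 to 1.30 and Lats2 from 0.53 to 0.76. Yap1 passed under 5 of them. The lowest values of Ankrd1, Axl, Yap1 and Wwtr1 came with normexp and its offset of 50. The value table read by its labels, whose columns match arrays of the opposite strain, turned the sign: Ankrd1 stood at -5.52, Ctgf at -1.13, Cyr61 at -1.28, Amotl2 at -0.42, Axl at -1.45 and Yap1 at -1.03. Counts of members in what follows leave out Ankrd1, which was not tested. By limma the value table gave 0 higher members (0 at an unadjusted p under 0.05) and 3 lower of 5. It also gave 1 higher and 4 lower further targets, 2 higher and 4 lower pathway genes, and 1340 higher genes in all. With slide as a fixed block 3 members, 1 lower pathway gene and 859 lower genes were called. With no filter 941 genes were lower. Lower pathway genes numbered 1 with normexp, with the percentile over detected probes and with no filter, and 4 with the mean of a gene's probes. Leaving out single arrays, 2 to 6 members were higher, 7 to 9 pathway genes were higher and 1 or 2 were lower. Of all genes 1299 to 2203 were then higher and 628 to 1513 were lower, beside 2162 and 1464 with all arrays. The cause of these shifts was not tested. No paired analysis was possible because the strains share no replicate number; slides 2 and 3, which hold both strains, entered through the slide block instead. Signals near background, those of Ankrd1 and Yap1 in B6-ob/ob above all, limit how well a fold is known.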
